A study of Drosophila melanogaster with 2 samples.

Results

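The ush and cbt locus is the stretch of fly chromosome arm 2L where u-shaped (ush) and cabut (cbt), genes for zinc finger proteins, lie on top of each other. Its peaks were chosen by position and measured signal: every peak of the deposited dm6 lists whose summit lay inside ush or cbt or within 10 kb of either, at the site of the peak with the highest signal of all. By this rule the pooled list of both replicates held 59 of its 30000 candidate peaks at the locus, the replicate 1 list held 56 of 30000 and the replicate 2 list 66 of 30000. With overlapping peaks merged, these made 51 regions in the pooled list, 50 in replicate 1 and 46 in replicate 2. The list of peaks past the authors' threshold on the irreproducible discovery rate (IDR, which compares the ranks of peaks between replicates) held 14 of its 4097 peaks there; these are called thresholded peaks. The signal is the value the authors' peak caller gave to each peak; its scale is not stated, so signals were read within a list, and replicate 2 was set against replicate 1 only beside the same ratio over the genome. Since high signal is what picked out the locus, its signals, ranks and peak numbers are given as a description, with no test.

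The lists came from chromatin immunoprecipitation and sequencing (ChIP-seq) of whole, mixed-sex Drosophila melanogaster embryos aged 0 to 24 h, with an antibody against GFP. There was 1 group of 2 biological replicates and no second condition. Both replicates came from a fly line named side-MiMIC-GFP, in which an eGFP exon sits in an intron so that a host gene makes a GFP fusion protein; the labels name that gene both as side, a cell surface protein gene, and as Sidpn, a gene of the HES family of transcriptional repressors, and the tagged gene is therefore not settled. Each list was made with 1 control that all of them share, the read depth is unknown, and in whole embryos strong occupancy in few cells and weak occupancy in many cannot be told apart.

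Ush is a protein with several zinc fingers of the Friend of GATA family. It binds GATA transcription factors such as Pannier and Serpent and changes their activity, and in the embryo it is known for roles in the amnioserosa, the heart and the blood cells. Cabut is a zinc finger factor related to the TIEG branch of the Krüppel-like factors. It is needed for dorsal closure, the sealing of the embryo's back by the epidermis, and it is also induced by sugar through Mondo and its partner bigmax.

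The sequences around 5 of the thresholded summits are shown because they carry the main features of the locus: the strongest peak, the peak at the promoter of cbt, the strongest peak deeper in the first ush intron, and the peaks beside the internal starts of ush. They are from the plus strand of genome Release 6 (dm6), with 100 bp either side of the first summit and 50 bp either side of the others. Capitals mark matches on either strand to the searched motifs, which are spelled out with the motif results.
Strongest peak, summit 481053, chr2L:480953-481153: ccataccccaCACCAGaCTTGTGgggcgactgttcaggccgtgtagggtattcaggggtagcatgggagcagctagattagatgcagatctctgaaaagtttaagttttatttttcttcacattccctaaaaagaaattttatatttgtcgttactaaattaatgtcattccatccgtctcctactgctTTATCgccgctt
Promoter of cbt, summit 480074, chr2L:480024-480124: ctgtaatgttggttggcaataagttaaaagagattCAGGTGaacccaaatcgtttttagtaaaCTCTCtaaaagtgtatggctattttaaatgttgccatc
First ush intron, summit 485866, chr2L:485816-485916: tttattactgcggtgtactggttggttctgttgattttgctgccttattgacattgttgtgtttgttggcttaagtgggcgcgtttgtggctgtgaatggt
Second exon of ush-RE, summit 490272, chr2L:490222-490322: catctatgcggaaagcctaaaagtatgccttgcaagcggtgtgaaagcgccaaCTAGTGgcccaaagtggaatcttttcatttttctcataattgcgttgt
Starts of ush-RA and ush-RC, summit 523650, chr2L:523600-523700: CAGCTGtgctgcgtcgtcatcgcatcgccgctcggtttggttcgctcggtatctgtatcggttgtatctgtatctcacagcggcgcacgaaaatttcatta

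In the annotation, ush (FBgn0003963) runs from 476220 to 540560 on the plus strand, and cbt (FBgn0043364) runs from 476446 to 479688 on the minus strand. The gene cbt, of 3243 bp, thus lies wholly inside ush, of 64341 bp, and is read in the opposite direction. All 3 transcripts of cbt begin at 479688. The 5 transcripts of ush begin at 4 sites: 476220 (ush-RD and ush-RE), 490835 (ush-RB), 523466 (ush-RA) and 523736 (ush-RC). The window of 10 kb around ush, from 466220 to 550560 (84341 bp), takes in the whole window around cbt.

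Of the pooled candidates at the locus, 14 of 59 (23.7%) were thresholded, against 13.7% of all 30000 pooled candidates. The thresholded peaks of the locus did not overlap one another. At the mean density of the 6 main chromosome arms, the window would hold 2.58 thresholded peaks and 18.9 pooled candidates. The window around cbt alone held 8 thresholded peaks among 19 candidates. The weakest thresholded peak of the locus had a signal of 86.3 (rank 3771), and the strongest candidate that fell short of the threshold had 81.1 (rank 4128). At the edges of the window, the first summit inside on the left had a signal of 132 and the last one outside 43.9, while the last summit inside on the right had 25.1 and the next one outside 59.5.

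**Figure D1:**
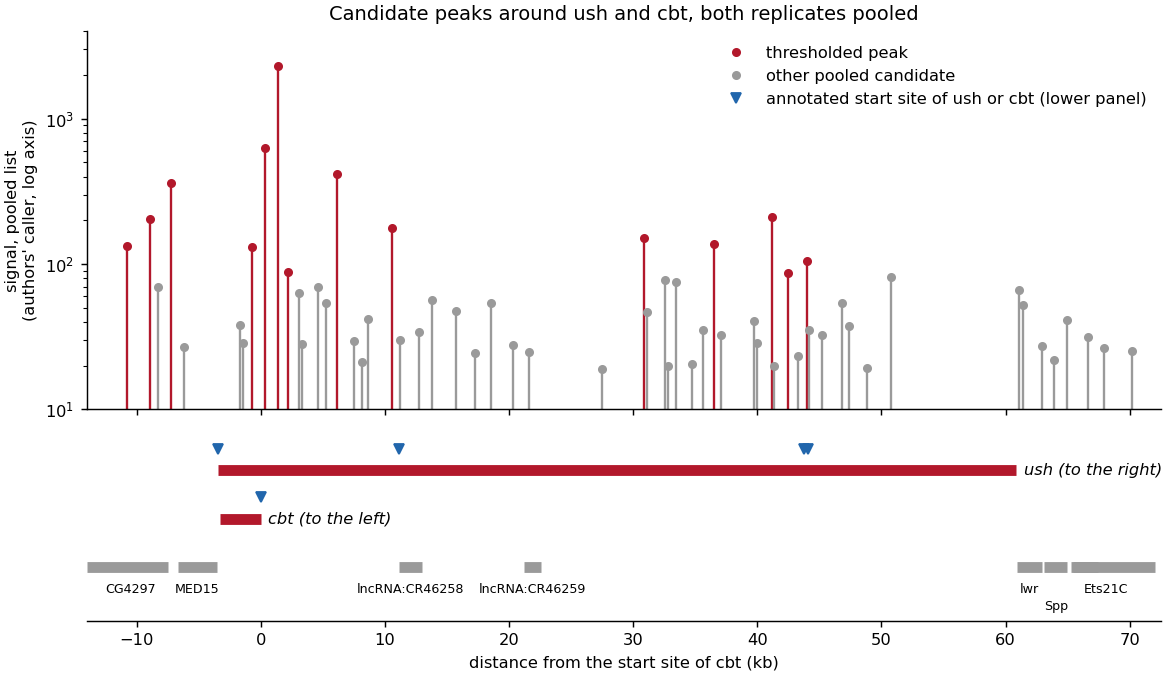
Signal of the 59 pooled candidate peaks (vertical log axis) against the distance of their summits from the start site of cbt in kb, drawn in the direction of the plus strand, with genes below as bars and the start sites of ush and cbt as triangles; nAChRbeta3 lies within the bar of Ets21C and is not labelled. The 14 thresholded peaks (red) include the peak of 2299.9 just right of the start of cbt, and none lies right of the last start of ush.

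The strongest peak (chr2L:480876-481323) had its summit 1365 bp upstream of the start of cbt, in intron 1 of ush-RE and ush-RD. Its signal was 1347 in replicate 1, 938 in replicate 2 and 2299.9 in the pooled list. It ranked 1 in each of the 3 lists. The signal was 71.5 times the median of the pooled list, 67.8 times that of replicate 1 and 56.8 times that of replicate 2. It exceeded the second peak of the list 1.20-fold in the pooled list, 1.06-fold in replicate 1 and 1.10-fold in replicate 2. The peak thus headed a gradual decline in signal and did not stand apart from the next peaks of any list. Replicate 1 placed its summit at 481054 and replicate 2 at 481045, 1 bp and 8 bp from the pooled summit. Replicate 2 also listed a second summit in the same region, at 481244 and 191 bp from the pooled one, with a signal of 125 and rank 501; the other lists held no second summit there.

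**Figure D2:**
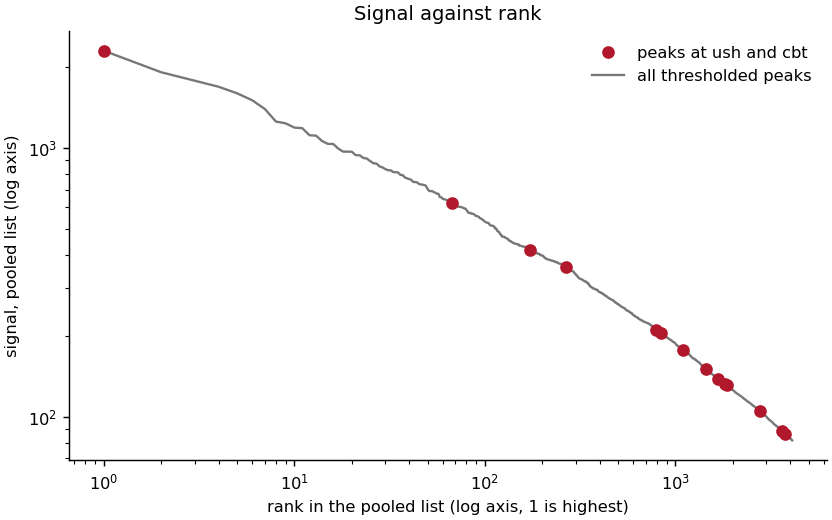
Signal in the pooled list against rank (both axes log), with all 4097 thresholded peaks as a line and the 14 peaks of the ush and cbt locus as red points. The points run from rank 1 with a signal of 2299.9 to rank 3771 with 86.3.

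The peak at the promoter of cbt was the next in signal at the locus. Its summit (480074) lay 386 bp upstream of the start of cbt, with a signal of 371 in replicate 1, 267 in replicate 2 and 626 in the pooled list. It ranked 58, 80 and 67 in these lists. The strongest peak was 3.68 times as high in the pooled list, 3.64 times in replicate 1 and 3.51 times in replicate 2, so the lists gave nearly the same proportion between these neighbours.

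Around this pair lay weaker peaks on either side. Inside cbt, 661 bp downstream of its start, a thresholded peak (summit 479027) had a signal of 79.5 in replicate 1, 72.6 in replicate 2 and 131 in the pooled list. The annotation puts it in intron 1 of cbt-RA and cbt-RC and in the 5' untranslated part of the single exon of cbt-RB. Upstream of cbt by 2220 bp, a peak of 53.7 in replicate 1, 35.0 in replicate 2 and 88.5 in the pooled list (summit 481908) ranked 3139, 5129 and 3627, so it was within the first 4097 of replicate 1 and not of replicate 2. The cbt gene body held 3 pooled candidates in all, and its other 2 had signals of 37.9 and 28.7.

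Counting the peaks near it, the strongest peak had 4 other thresholded summits within 5 kb. Over all 4097 thresholded peaks the median number was 1, and 1998 peaks (48.8%) had none. A number of 4 or more was found for 91 thresholded peaks (2.22%), and for 3 of the 100 strongest, the strongest peak included in both. The highest number was 9. The peaks ranked 2 to 5 in the pooled list had 0 at Ugalt, 1 at CG14100, 1 at CG11050 and 1 at Lk6. The strongest peak was thus the one with most neighbours among these first 5. Just below them, the peaks ranked 6 and 7 had 3 each, and the peak ranked 44 had 9.

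**Figure D3:**
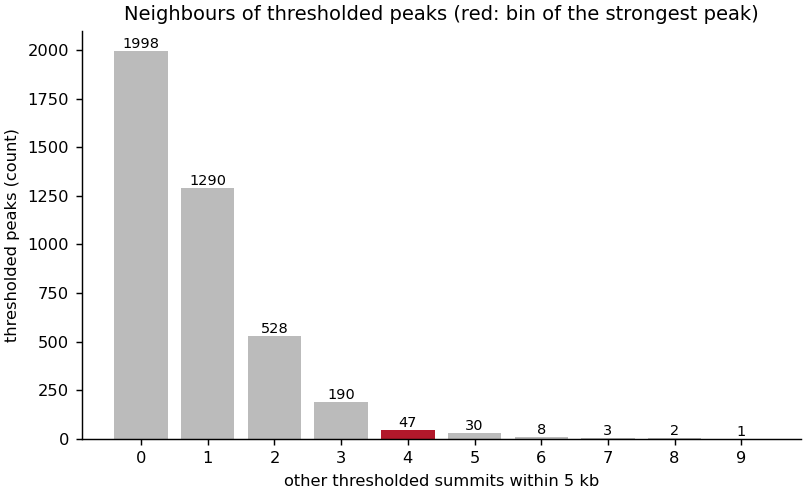
Number of thresholded peaks (vertical axis) by the number of other thresholded summits within 5 kb (horizontal axis). The strongest peak, in the red bar, had 4 neighbours, as did 47 peaks in all, while 1998 had none.

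Farther into the first ush intron, the peak at summit 485866 was the third strongest of the locus. It had a signal of 206 in replicate 1, 212 in replicate 2 and 418 in the pooled list and ranked 226, 149 and 173. It lay 6178 bp upstream of cbt and 4969 bp upstream of the start at 490835, which ush-RB shares with the noncoding RNA gene lncRNA:CR46258. No annotated start was nearer. Between it and the strongest peak the pooled list held candidates of 63.0, 28.1, 69.2 and 54.0 beside the thresholded one of 88.5.

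The annotated starts of ush carried much less signal than the region upstream of cbt. At the first start (476220) no pooled summit lay within 500 bp, and the nearest, at 1800 bp, had a signal of 37.9. At the start of ush-RB a candidate 45 bp downstream had a signal of 30.1 (rank 16359), while a thresholded peak lay 563 bp upstream. That peak (summit 490272) had a signal of 111 in replicate 1, 66.7 in replicate 2 and 177 in the pooled list, and it was in exon 2 of ush-RE, in its 5' untranslated part. At the downstream starts a single thresholded peak (summit 523650), in exon 1 of ush-RA, lay 184 bp downstream of the start of ush-RA and 86 bp upstream of that of ush-RC. It had a signal of 62.8 in replicate 1, 55.7 in replicate 2 and 105 in the pooled list, with rank 2766. The promoter peak of cbt was thus higher in every list than the thresholded peaks nearest to the starts of ush.

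The long introns between the starts at 490835 and 523466 held 4 further thresholded peaks. Their pooled signals were 211 (summit 520854), 150 (510601), 138 (516209) and 86.3 (522195). The peak at 510601 had 62.1 in replicate 1 and 95.1 in replicate 2, and ranked 2476 and 860. The peak at 520854 had 100.3 in replicate 1 and 114 in replicate 2, and lay 2612 bp upstream of the start of ush-RA. The weakest, at 522195, ranked 5430 in replicate 1 and 4140 in replicate 2, below the first 4097 of both, although it was in the thresholded list.

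Peaks grew sparser along ush. From the first to the second ush start (14.6 kb) the pooled list held 10.3 candidates and 4.11 thresholded peaks per 10 kb. From the second to the third start (32.6 kb) it held 7.35 and 1.23, and from the third start to the gene's end (17.1 kb) 4.09 and 0.585. Over the 6 main arms the means were 2.24 and 0.306 per 10 kb. The longest stretch of the window with no pooled summit ran for 10307 bp, from 530477 to 540784, and took in 7 of the 11 distinct coding segments annotated for ush. Replicate 1 listed 4 summits in that stretch and replicate 2 listed 2.

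Upstream of ush, 3 thresholded peaks lay at CG4297. The strongest (summit 472454) was 254 bp upstream of the outer start of CG4297, with a signal of 200.0 in replicate 1, 170 in replicate 2 and 360 in the pooled list. The others lay in intron 1 of CG4297, with pooled signals of 204 (summit 470795) and 132 (summit 468950). The gene MED15, for a subunit of the Mediator complex, lies between CG4297 and ush and is read away from CG4297. The peak at 472454 lay between the starts of CG4297 and MED15, inside neither gene. MED15 had 1 candidate inside it, of 26.8, and no thresholded peak inside it or within 500 bp of its start. Within 10 kb of MED15 there were 8 thresholded peaks. Downstream of ush there was no thresholded peak within 10 kb, and the 8 candidates there had signals from 22.0 to 65.9.

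By class, 3 of the 14 thresholded summits were within 500 bp of an annotated start, 9 were in introns and 2 in 5' untranslated parts of exons. Over all 4097 thresholded peaks 56.4% were within 500 bp of a start, 30.4% in introns and 0.635% in 5' untranslated parts. Which genes the intronic peaks act on was not measured.

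Each of the 14 thresholded peaks overlapped a candidate in both replicate lists, as did 4078 of all 4097 thresholded peaks. The thresholded list equals the first 4097 peaks of the pooled list, which was made from both replicates, so such overlap is largely built in. A peak's place in it followed its pooled signal and is no measure of its own agreement between replicates. Within the first 4097 of both replicates were 12 of the 14 (85.7%), as were 72.4% of all thresholded peaks. The log2 ratio of replicate 2 to replicate 1 signal had a median of -0.14 and ranged from -0.74 (summit 490272) to 0.62 (summit 510601), with a median of -0.24 over the thresholded peaks of the genome found in both lists. The summits of the 2 replicates were 27 bp apart at the median and 114 bp at most, against a median of 30 bp over all thresholded peaks. Of the 59 pooled candidates, 42 (71.2%) overlapped a candidate in both replicates, 7 in replicate 1 alone, 8 in replicate 2 alone and 2 in neither, and 64.0% of all pooled candidates overlapped one in both. A pair of neighbouring pooled candidates could overlap the same replicate peak and then both counted. The part of the shared control in this overlap was not tested.

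**Figure D4:**
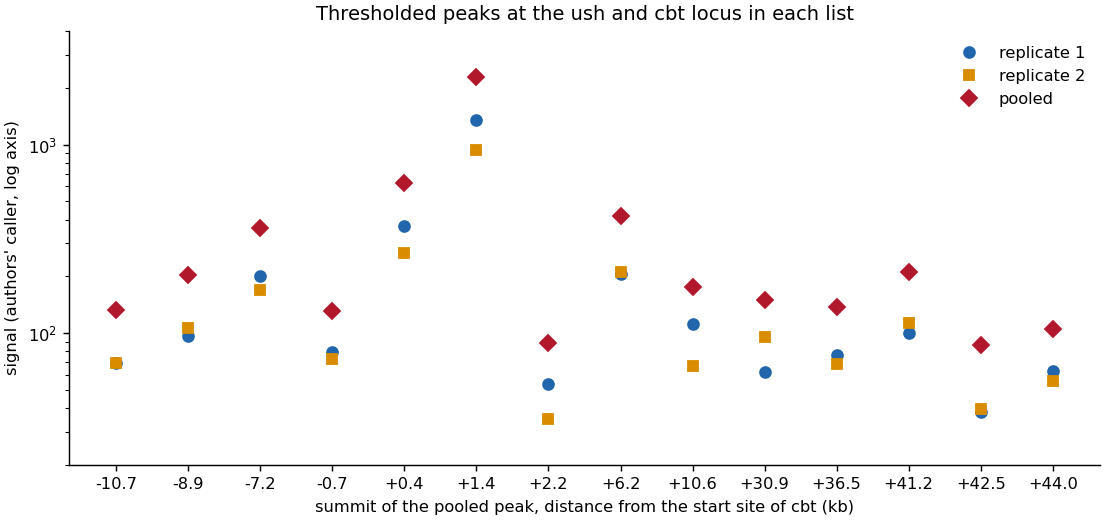
Signal of the 14 thresholded peaks of the locus in replicate 1, replicate 2 and the pooled list (vertical log axis), ordered by the position of the pooled summit relative to the start of cbt in kb along the plus strand. Replicates 1 and 2 gave 37.9 and 39.7 at the peak weakest in the pooled list, and 1347 and 938 at the strongest. Heights are to be compared within a list only.

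**Figure D5:**
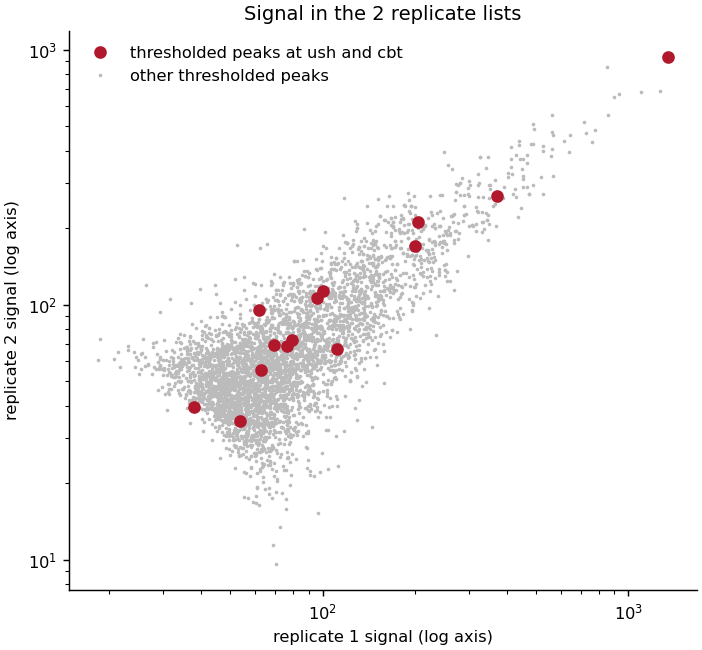
Replicate 2 signal against replicate 1 signal (both axes log) for the thresholded peaks found in both replicate lists, with the 14 peaks of the locus in red and the others in grey. The peak with 1347 and 938 is the farthest out in both replicates.

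Among protein-coding genes, ush was near the top in the number of thresholded peaks. It had 11 inside the gene and 14 inside or within 10 kb. Of 13945 protein-coding genes, 7 had as many or more inside, and 4 had as many or more inside or within 10 kb, ush itself counted in both. Gene length enters these counts directly. Among the 168 genes from 80% to 125% of the length of ush (51533 to 80328 bp), the median was 0.5 thresholded peaks inside and 2 inside or within 10 kb, and 3 genes, ush included, had as many as ush by either count. Named after its count was seen, shn, a gene for a zinc finger factor of the Dpp pathway, had the most inside, with 14. For cbt the count was 1 inside and 8 inside or within 10 kb, and all 8 are among the 14 of ush. Among the 1824 genes from 80% to 125% of its length the median was 1 within 10 kb, and 2 of them, cbt included, had 8 or more. The other was the nearby gene MED15, of 3158 bp, and its 8 are the same peaks as those of cbt. The count is thus not particular to cbt.

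The intronic thresholded peaks nearest in signal to the strongest one were sought by the distance between log2 signals over the 2 replicates. As the strongest peak ranked 1 in both replicates, the nearest ones are by construction other peaks high in the lists. Their nearness shows no further likeness. The nearest 5 outside the locus were in CG11050 (distance 0.68), Lk6 (0.72), CG9663 (1.34), CG32772 (1.61) and Tlk (1.88). The peak in CG11050 had a signal of 849 in replicate 1 and 853 in replicate 2, and ranked 7 and 2. The peak in Lk6, a gene for a protein kinase that acts on translation initiation factor eIF4E, had 932 and 669, and ranked 4 and 5. From the summit to the nearest annotated start it was 1365 bp at the strongest peak, 1028 bp in CG11050 and 983 bp in Lk6. In the other genes it was 961 bp (CG9663), 1261 bp (CG32772) and 2301 bp (Tlk). Over the 1245 intronic thresholded peaks the median distance to the nearest start was 2465 bp and the median signal 125.

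Promoter peaks were also looked up at 18 genes related in function to ush and cbt. A thresholded summit within 500 bp of a start was found for 7 of 18 genes (38.9%), against 19.6% of all protein-coding genes. Candidates given below for the other genes are pooled summits within 500 bp of a start that fell short of the threshold. In replicate 2 alone, among its first 4097 peaks, the count was 3 of 18, and in replicate 1 alone it was 9 of 18. The number thus depended on the replicate. The share of all genes in each replicate is not given here, so the difference cannot be credited to these 18 genes. Of the GATA factors and their partners 2 of 6 had one: pnr (pooled signal 93.9), for the GATA factor Pannier, and grn (93.4), for a further GATA factor. The lowest signal in the thresholded list was 81.5. The peaks of pnr and grn ranked 3282 and 2507 in replicate 1, but 4698 and 5976 in replicate 2, outside its first 4097. The genes srp (19.8), GATAe (48.1), GATAd (43.4) and CtBP (49.5), a corepressor gene, had candidates only.

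Mutants of the U-shaped group fail to retract the germ band. Of its other genes, the 2 listed under that name, peb (142) and tup (137), had a thresholded promoter peak, while srp, which also belongs to the group and is counted above with the GATA factors, had a candidate of 19.8 only. Of the Krüppel-like and Sp factors 2 of 7 had one, luna (83.4) and Spps (85.4), while btd (70.2), dar1 (46.9) and CG42741 (38.7) had a candidate and Klf15 and Sp1 had none. Of the genes of the sugar response, bigmax had 240, with 135 in replicate 1 and 103 in replicate 2. Mondo (70.3) and sug (29.3) had candidates only. The promoter peak of cbt, at 626, was higher than that of any of the 18 genes. Its locus was chosen by high signal and it ranked 67 in the pooled list, so this order is a description only. The peak of 105 at the downstream ush starts was within the range of the 18 genes.

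Matches to 12 short motifs are given as a description of the letters, not as binding sites. Both strands of the 201 bp around each summit were searched for them. Motifs of basic helix-loop-helix factors were the E-box CANNTG, its special case CACGTG (every match of which is also an E-box match), the class C site CACGCG bound by HES proteins, and the N-box, written CACNAG. For zinc finger factors there were GATAA of the GATA factors, the CACCC box of Krüppel-like and Sp factors, GAGAG of the GAGA factor, CAGGTA of Zelda and GGTCACA of M1BP. The others were TATCGAT of DREF, TGANTCA of AP-1 and TGGGAA of Su(H). At the strongest peak CACNAG matched 2 times, 87 and 80 bp left of the summit, and GATAA matched 1 time, 91 bp right of it. All lay toward the ends of the printed window and none within 50 bp of the summit. With 2 of the 12 motifs the strongest peak equalled the median of all thresholded peaks and of the other candidates, which was 2 for both.

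Across the 14 thresholded peaks of the locus, CANNTG was found at 11, GATAA at 7, GAGAG at 6 and CACNAG at 4. Windows of the same length held CANNTG at 62.4% of all thresholded peaks and 66.4% of the other candidates, and GATAA at 39.7% and 33.2%. For GAGAG the shares were 27.3% and 25.9%, and for CACNAG 22.9% and 24.7%. The CACCC box was found at 2 of the 14, against 19.1% of all thresholded peaks and 24.2% of the other candidates. The Su(H) motif was found at 2 of the 14, against 10.8% and 11.3%, and the Zelda motif at 1, against 4.10% and 4.70%. The CACGTG match was at 1 of the 14, against 2.71% and 2.73%. The class C, DREF, AP-1 and M1BP motifs were found at 0 of the 14, and their shares of all thresholded peaks were 4.81%, 9.23%, 4.61% and 4.32%. The CACGTG match was at the peak of 88.5 upstream of cbt, outside the stretches printed.

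In base composition the peaks of the locus spread around the genome-wide values. The window of 201 bp at the strongest peak was 41.8% G and C, and the median was 39.6% over the 14 peaks and 38.3% over all thresholded peaks. None of the 172 overlapping 30-base words of any of the 14 windows occurred a second time in the assembly, while 1.34% of all thresholded windows held at least 1 repeated word. Bases masked in the assembly as possible repeats were nonetheless found in 100% of the 14 windows, against 82.3% of all thresholded windows. They made up 23.4% of the window at the strongest peak.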

How the data were processed

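Binding was measured by ChIP-seq against GFP in 2 biological replicates of 1 group, so no groups were compared and no test was run. Per the deposited file records, the authors made narrow peak lists of peaks and background for each replicate and for both pooled, against 1 control common to the dm6 lists, as input for IDR, and an optimal list past the IDR threshold. Column 7 of the deposited lists is the signal of the authors' caller. With caller, aligner, versions, IDR threshold and read totals not given in the sources used here, no interval was computed. Peaks were ranked by signal within each dm6 list; the thresholded list equals the first 4097 peaks of the pooled list. A peak of a replicate was matched to a pooled peak by an overlap of at least 1 bp, taking the highest signal. Coordinates are 1-based on dm6. Genes came from Ensembl release 115 (annotation 6.54), without transposable elements and pseudogenes, and sequence from Release 6, the same assembly. No coordinate was converted, and the pooled dm3 list was used only for its highest signal. Ranks, overlaps, classes, motif matches and repeated words were checked on made-up peaks and letters with known answers. Python 3.11.15, numpy 2.4.6, pandas 2.3.3 and matplotlib 3.10.9 were used. Alternatives were windows of 5 and 20 kb, merged peaks, the 1000 strongest peaks, each replicate alone, other motif windows and promoter windows of 200 and 1000 bp. The locus, gene lists and motifs were chosen with earlier results of these data known, and the counts of neighbours, per gene and per stretch of ush, the gaps, the replicate overlaps and the repeated words were added after the files had been read. The genes named were ush, cbt, genes overlapping the window, the related genes and the 5 genes of the intronic peaks nearest in signal. Related genes without a thresholded promoter peak, shn and the genes of the peaks ranked 2 to 5 were named after their values were seen.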

Additional observations from a re-analysis of the deposited data

How the results depend on the processing

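Of 26 alternative values for 7 results, 18 differed from the value reported by no more than 1.5 times for counts, or by less than the spread between replicates for the others, and 8 differed by more. The count of 14 thresholded peaks was 6 among the 1000 strongest. Each replicate alone ranked the strongest peak 1, with a signal from 938 to 1347, while the pooled list gave 2299.9. The scale of the signal is not stated, so this difference between lists cannot be read as a change in the result. The ratio of the strongest to the next signal was 3.51 to 3.64 in single replicates, against 3.68 pooled. The 2 motifs at the strongest peak became 0 within 50 bp of the summit, 6 over the whole peak and 1 to 2 with the summit of a single replicate; the window lengths differ by construction. The 7 related genes with a thresholded promoter peak became 3 without replicate 1 and 9 without replicate 2. The same change over all genes is not given here, and the cause was not tested. Windows of 5 and 20 kb gave 12 and 14 thresholded peaks, and the first 4097 peaks of replicate 2 and replicate 1 gave 16 and 14. Read depth is unknown, and with 2 replicates no error of a single peak's signal can be given beyond both values. No paired analysis was possible because there was only 1 group.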

Other observations

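The replicate lists held candidates at the locus that the pooled list lacked. In replicate 1 these were 10 of 56 candidates, the highest at summit 489003 with a signal of 19.1 and rank 15991. In replicate 2 they were 5 of 66, the highest at summit 496107 with 17.4 and rank 14007.

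At the downstream end of the window, the candidate with the highest signal (65.9, summit 540784) lay in the 3' untranslated part of lwr, the gene for the enzyme that conjugates SUMO. It had 24.7 in replicate 1 and 43.6 in replicate 2, ranks 10682 and 3544. The gene Ets21C, for an ETS-family factor, had 4 candidates inside it and no thresholded peak.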
